A study of Mus musculus with 6 samples.

Results

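The genes described are 10 cytosolic and mitochondrial heat-shock proteins, taken by symbol from the deposited gene table: Hspa1a, Hspa1b, Hspa8, Hspa9, Hsp90aa1, Hsp90ab1, Hsph1, Hspb1, Hspd1 and Hspe1. All 10 were found among the 34724 genes of the table, and all 10 were among the 13187 genes abundant enough to be tested. Hspa1a and Hspa1b reached that abundance in 2H-11 alone. The cells were 2H-11, which the labels call tumor endothelial cells, and SVEC4-10, which they call normal endothelial cells. Both are mouse lines of adult C3H/HeJ origin from the axillary lymph node, both were transformed with SV40, and no treatment is given for either. With 1 line for each label, a difference that goes with tumor origin and one particular to the line cannot be told apart. Total RNA of each line was read by nanopore direct RNA sequencing, in which an RNA molecule passes through the pore from its 3′ end and gives 1 read. There were 3 libraries of each line. The labels do not say whether separate cultures were used, so a p-value is set against the spread between libraries alone, and that spread may be technical.

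The libraries held between 4105369 and 5825968 counted reads in 2H-11 and between 3628400 and 16798666 in SVEC4-10. Values are given as CPM, the count of a gene per 1000000 counts of its library, and a value after ± is the SD over 3 libraries. Of 11 endothelial markers, 9 were under 1 CPM in every library and 5 of those had no count at all, so both lines lacked most of the markers of the cell type on their labels. The endothelial markers summed to 12.2 to 19.2 CPM in 2H-11 and 2.81 to 4.13 CPM in SVEC4-10, led by Eng with a mean of 9.61 CPM in 2H-11 and 2.45 in SVEC4-10. Fibroblast and mural markers summed to 1799 to 2304 CPM in 2H-11 and 2087 to 2195 CPM in SVEC4-10. The most abundant of these, Acta2, averaged 872 CPM in 2H-11 and 1150 in SVEC4-10. Epithelial markers summed to 16.99 to 30.5 CPM in 2H-11 and 3.51 to 5.84 CPM in SVEC4-10, with a mean for Krt19 of 22.0 CPM in 2H-11 and 0.196 in SVEC4-10. Leukocyte markers summed to at most 3.17 CPM in 2H-11 and 3.86 in SVEC4-10. Markers of all these lists but the leukocyte one moved with the line in part. Of all genes tested, 36.2% differed in the test described below. Of 8 tested fibroblast and mural markers 75.0% did, 5 higher in 2H-11 and 1 lower. Among them, and named after their values were seen, Pdgfrb had 27.5 ± 5.04 CPM in 2H-11 and no read in SVEC4-10, and Dcn had 13.8 ± 2.59 CPM in 2H-11 and 307 ± 52.4 in SVEC4-10. Of the epithelial keratins Krt8, also named afterwards, went against Krt19, with 0 reads in 2H-11 and 72 in SVEC4-10. The part of these markers in the differences below was not tested.

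Heat-shock proteins are chaperones that bind unfolded stretches of other proteins. Hsp70 proteins bind and release short stretches in a cycle driven by ATP, with J-domain proteins that bring substrates and nucleotide exchange factors that let go of them, and Hsp90 proteins take over many signalling proteins at a later stage of folding. Hsp60 and its lid Hsp10 enclose proteins inside mitochondria. Some members are made at all times, while others are transcribed after heat or proteotoxic stress, when the factor HSF1 binds heat-shock elements, which are inverted repeats of the letters GAA. The large T antigen of SV40, the virus used to transform both lines, carries a J domain that engages the cytosolic Hsp70 protein Hspa8.

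The sequences upstream of the inducible Hsp70 genes come first because these genes carried the largest difference among the members, and because the letters show how alike the genes are. Hspa1a and Hspa1b encode nearly the same stress-inducible Hsp70 protein, and lie side by side on the minus strand of chromosome 17. The windows are the 250 bases before the annotated start in RefSeq (GRCm38.p6), at chr17:34972157-34972406 for Hspa1a and chr17:34959239-34959488 for Hspa1b, and neither overlaps an exon of GENCODE M21. Capitals mark GAANNTTC, 1 of the 2 spellings of a paired heat-shock repeat that were searched, where N is any base.
Hspa1a: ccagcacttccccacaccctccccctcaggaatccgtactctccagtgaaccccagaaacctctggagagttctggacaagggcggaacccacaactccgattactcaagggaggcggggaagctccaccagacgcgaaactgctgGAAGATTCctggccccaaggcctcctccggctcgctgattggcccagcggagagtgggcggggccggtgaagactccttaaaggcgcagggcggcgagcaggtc
Hspa1b: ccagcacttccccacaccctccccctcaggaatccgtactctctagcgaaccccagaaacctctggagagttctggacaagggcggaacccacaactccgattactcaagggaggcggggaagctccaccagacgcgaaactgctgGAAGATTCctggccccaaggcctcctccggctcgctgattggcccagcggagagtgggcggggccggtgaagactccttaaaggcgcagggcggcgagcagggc

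The Hspa1a and Hspa1b windows were identical at 98.8% of their 250 positions. They differed by C44T, T47C and T249G, counted from 1 at the 5′ end with the Hspa1a base first. Both held GAAGATTC at 104 to 97 bases before the start. These letters are those of the reference genome, whose strain differs from C3H/HeJ.

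The Hspb1 window at chr5:135887669-135887918, on the plus strand, is shown because it holds the same spelling in separate places, at 117 to 110 and at 97 to 90 bases before the start, in a small heat-shock gene whose level did not pass the test between the lines.
Hspb1: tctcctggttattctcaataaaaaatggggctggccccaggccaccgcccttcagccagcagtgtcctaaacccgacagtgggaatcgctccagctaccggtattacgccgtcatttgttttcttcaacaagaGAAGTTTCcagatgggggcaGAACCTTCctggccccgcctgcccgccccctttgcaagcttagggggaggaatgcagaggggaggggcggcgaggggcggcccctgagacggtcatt

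The mitochondrial pair Hspd1 and Hspe1 lies head to head on chromosome 1, and the annotated genes overlap by 112 bases. A stretch between annotated exons of both genes, at chr1:55088025-55088131, lies inside the annotated span of Hspd1 but in no exon. Read along the plus strand towards Hspe1, it carries a longer run of the repeat, shown in capitals.
Hspd1 and Hspe1: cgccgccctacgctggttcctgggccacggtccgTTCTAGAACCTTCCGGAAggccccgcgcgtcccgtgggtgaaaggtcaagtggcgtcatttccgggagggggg

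The capitals spell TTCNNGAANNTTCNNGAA, a run of TTCNNGAA that also holds GAANNTTC in overlap. Each of these patterns reads the same on both strands. It stood 89 to 72 bases before the start of Hspe1 and 144 to 127 bases before a start of Hspd1. The repeat was common in its short form and rare in its long form. Among 27018 genes with a RefSeq window, GAANNTTC or TTCNNGAA was found for 14.6%, and the run of the longer pattern for 4 genes, Arpc2, Fam149a, Hspd1 and Hspe1. The Hsph1 window held TTCTCGAA. RefSeq windows were matched for 6 of the 10 members. A match is a description of letters and not a binding site.

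Of the heat-shock members, 3 of 10 differed between the lines beyond the spread of the libraries. Hspa1a and Hspa1b were higher in 2H-11, Hsp90aa1 was lower, and the other 7 did not pass the test (edgeR's quasi-likelihood test at an adjusted p of 0.05, after Benjamini and Hochberg over all genes). Over all genes tested, 20.1% were higher and 16.2% lower, 36.2% in either direction, so 3 of 10 members is near the background. The libraries of the lines did not overlap for the same 3 members, against 46.8% of all genes tested (28.0% with 2H-11 above and 18.8% with 2H-11 below). Hspa1a and Hspa1b passed the filter on low counts through their 2H-11 libraries alone, so their lack of overlap is not separate support. The median log2 fold change of 2H-11 over SVEC4-10 was 0.05 over the members and 0.00 over all genes tested. All members have Ensembl identifiers, and over the 10149 tested genes with such an identifier the median was -0.10. The members together made 8365, 7720 and 6250 CPM in 2H-11, against 6501, 7357 and 7463 in SVEC4-10, and the lines overlapped. That is 0.745% of counts in 2H-11 and 0.711% in SVEC4-10.

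**Figure D1:**
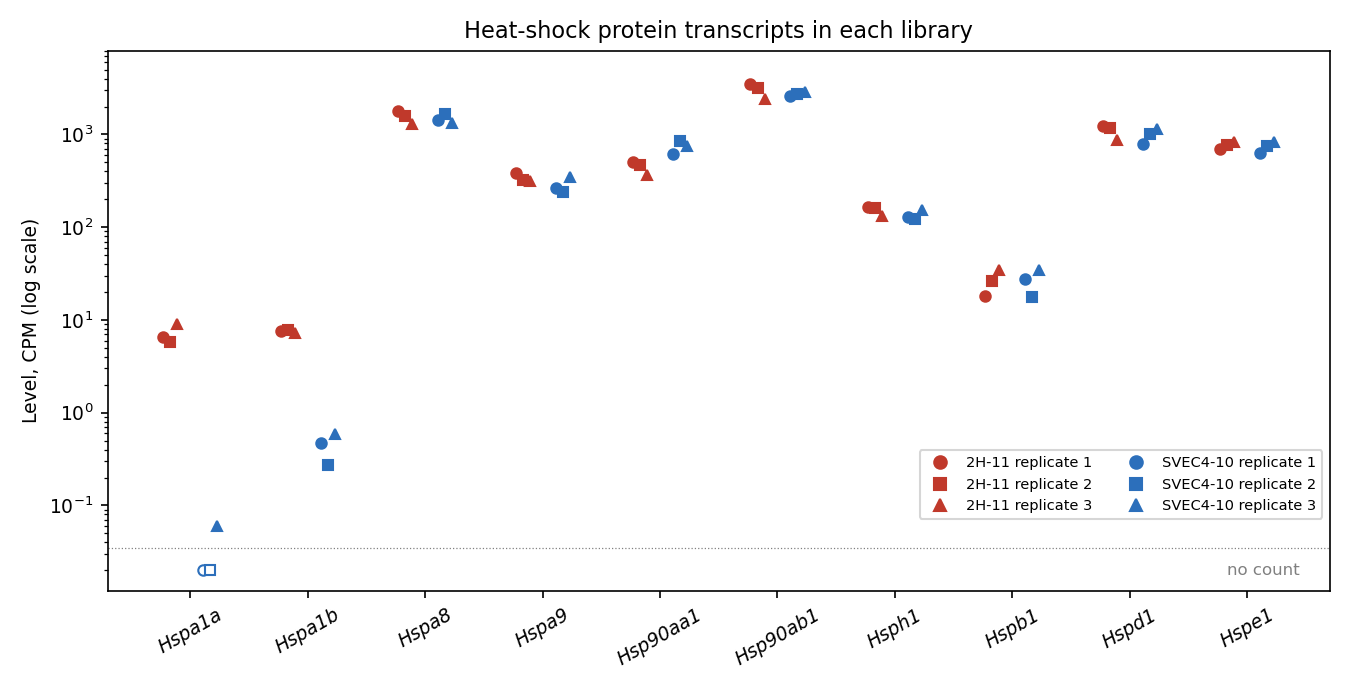
CPM of each heat-shock member (log axis) in the 3 libraries of 2H-11 and the 3 of SVEC4-10, with 1 point per library. Hspa1a and Hspa1b lie above and Hsp90aa1 below in every 2H-11 library, while the points of the other 7 members overlap.

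By their means per kilobase of transcript the members fell into the same order in both lines. Hsp90ab1 was highest at 1205 CPM per kb in 2H-11 and 1081 CPM per kb in SVEC4-10, followed by Hspe1 at 990.6 in 2H-11 and 956.5 in SVEC4-10. Hspa8 then stood at 709.4 CPM per kb in 2H-11 and 666.5 in SVEC4-10, and Hspd1 at 452.1 in 2H-11 and 406.6 in SVEC4-10. Hsp90aa1, Hspa9, Hsph1 and Hspb1 followed, and Hspa1b and Hspa1a were lowest at 2.69 and 2.41 CPM per kb in 2H-11, against 0.159 and 0.00669 CPM per kb in SVEC4-10. Ranges of the neighbours Hsp90ab1 and Hspe1 overlapped in both lines. Compared within libraries, Hsp90ab1 was above Hspe1 in every SVEC4-10 library but below it in 2H-11 replicate 3. In 2H-11 the ranges of Hsp90aa1 and Hspa9, and those of Hspa1b and Hspa1a, also overlapped. In SVEC4-10 these ranges did not. Within each 2H-11 library Hsp90aa1 was above Hspa9, while Hspa1b was below Hspa1a in 2H-11 replicate 3. A direct RNA read stands for a molecule of any length, so the order per kilobase gives short transcripts such as that of Hspe1 a higher place than an order by CPM would.

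Hspa1a (ENSMUSG00000091971), a gene of a single exon at chr17:34969190-34972156, was counted in every 2H-11 library and nearly absent from SVEC4-10. It had 6.51, 5.85 and 9.10 CPM in 2H-11, from 35, 24 and 53 reads, against 0, 0 and 0.0595 in SVEC4-10, from 0, 0 and 1 read. The lowest 2H-11 library was far above the only SVEC4-10 library with a count. Means were 7.15 ± 1.72 CPM in 2H-11 and 0.0198 ± 0.0344 in SVEC4-10. The ratio of summed counts, 112 in 2H-11 and 1 in SVEC4-10, each over its line's total, was 181 with an exact 95% counting interval from 31.8 to 7203. Intervals of counts cover counting error only. The single SVEC4-10 read came from replicate 3, the deepest library. Without that library SVEC4-10 had 0 reads. Set against a floor of 3 counts over the remaining SVEC4-10 libraries, the ratio was 19.3, which leaves out counting error in 2H-11. The exact 95% interval of the ratio began at 15.4. The fitted log2 fold change was 6.87 (SE 0.65, edgeR adjusted p = 1.42e-07), a size that depends on how a count of 0 is moderated.

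Hspa1b (ENSMUSG00000090877), also of 1 exon, at chr17:34956436-34959238, differed in the same direction. It had 7.63, 7.79 and 7.21 CPM in 2H-11, from 41, 32 and 42 reads, against 0.467, 0.276 and 0.595 in SVEC4-10, from 2, 1 and 10 reads. The 2H-11 libraries were close to each other and all above SVEC4-10. The log2 fold change was 3.75 (SE 0.43, edgeR adjusted p = 1.32e-06), a fold of 13.5 with a 95% interval from 7.24 to 25.02. Summed counts of 115 in 2H-11 and 13 in SVEC4-10 gave a ratio of 14.3 (8.03 to 27.6). Without SVEC4-10 replicate 3, 3 reads were left in SVEC4-10 and the ratio was 19.8 (6.61 to 97.4).

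The reads of Hspa1a and Hspa1b could have been shared between the genes, because their coding sequences are 99.4% identical (1918 of 1929 aligned positions). After the coding sequence the transcripts are 43.9% identical, and a direct RNA read starts in that region. How the authors placed reads that matched both genes is not given in the sources used here, so the split between the genes is uncertain and their sum is the safer measure. The sum was 14.1, 13.6 and 16.3 CPM in 2H-11, against 0.467, 0.276 and 0.655 in SVEC4-10. The lines were well apart. The summed row had a log2 fold change of 4.61 (edgeR adjusted p = 2.61e-08), and 227 reads in 2H-11 and 14 in SVEC4-10 gave a ratio of 26.2 (15.3 to 48.6). Without SVEC4-10 replicate 3 the ratio was 39.1 (13.2 to 190.9). Hspa1a took 49.3% of the pair's reads in 2H-11 (112 of 227, exact 95% interval 42.7% to 56.0%) and 7.14% in SVEC4-10 (1 of 14, 0.181% to 33.9%). The SVEC4-10 share rests on 14 reads, of which 11 came from replicate 3.

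Hspa8 (ENSMUSG00000015656), the Hsp70 that cells make without stress, was abundant in both lines and did not pass the test. It had 1814, 1599 and 1283 CPM in 2H-11, against 1434, 1648 and 1329 in SVEC4-10. The highest and the lowest library were both of 2H-11. Its fitted log2 difference was -0.01 (95% interval -0.36 to 0.33, adjusted p = 0.962). The gene has 9 exons at chr9:40800984-40810087, and its coding sequence is 73.9% identical to that of Hspa1a. The inducible pair was a small addition to it in each line. Per 1000 Hspa8 reads of the same library there were 7.80, 8.53 and 12.7 reads of the pair in 2H-11, against 0.326, 0.167 and 0.493 in SVEC4-10. This ratio does not depend on the scaling of a library, and the lines did not overlap. It was 31.6-fold higher in 2H-11 (exact two-sided permutation p = 0.1, the smallest that 3 against 3 libraries allow, and 0.15 after Benjamini-Hochberg adjustment over 3 ratios).

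Hspa9, the Hsp70 of the mitochondrial matrix (ENSMUSG00000024359, chr18:34937414-34954357), had 382, 324 and 314 CPM in 2H-11, against 267, 240 and 352 in SVEC4-10. SVEC4-10 replicate 3 lay within the 2H-11 libraries. The log2 fold change was 0.15 (-0.21 to 0.51, adjusted p = 0.535). Hsph1, the large Hsp110 relative that acts as a nucleotide exchange factor of Hsp70 and is itself stress-inducible, had 165, 161 and 133 CPM in 2H-11, against 128, 123 and 155 in SVEC4-10. Its log2 fold change was 0.07 (-0.29 to 0.44, adjusted p = 0.779), and the libraries overlapped. Hsph1 (ENSMUSG00000029657) lies at chr5:149614287-149636376.

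Hsp90aa1, the stress-inducible cytosolic Hsp90, was the only member that fell in 2H-11. It had 506, 465 and 367 CPM in 2H-11, against 614, 855 and 746 in SVEC4-10. Every 2H-11 library was below every SVEC4-10 library. Means were 446 ± 71.4 CPM in 2H-11 and 738 ± 121 in SVEC4-10. Its fitted log2 difference was -0.83 (SE 0.18, 95% interval -1.21 to -0.46, edgeR adjusted p = 0.00116), so Hsp90aa1 was 1.78-fold lower in 2H-11. Hsp90aa1 (ENSMUSG00000021270) lies at chr12:110690605-110702728 and has 11 exons.

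Hsp90ab1, the cytosolic Hsp90 that cells make at all times, was the most abundant member. It had 3540, 3177 and 2396 CPM in 2H-11, against 2604, 2701 and 2866 in SVEC4-10. All SVEC4-10 libraries lay inside the range of 2H-11. The log2 fold change was 0.06 (-0.28 to 0.39, adjusted p = 0.82). Hsp90ab1 (ENSMUSG00000023944) lies at chr17:45567775-45573271 and its coding sequence is 75.3% identical to that of Hsp90aa1.

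The balance between the cytosolic Hsp90 genes was also compared within libraries. Within each library there were 14.3, 14.6 and 15.3 Hsp90aa1 reads per 100 Hsp90ab1 reads in 2H-11, against 23.6, 31.6 and 26.0 in SVEC4-10. The 2H-11 libraries spanned a narrow range, all below SVEC4-10. Means were 14.7 ± 0.519 in 2H-11 and 27.1 ± 4.14 in SVEC4-10, a log2 difference of -0.87 (exact two-sided permutation p = 0.1, the smallest possible, adjusted 0.15). Of the members described here as stress-inducible, Hspa1a and Hspa1b rose, Hsp90aa1 fell, and Hsph1 did not pass the test. Hspb1, Hspd1 and Hspe1, whose upstream stretches also hold the repeat, did not pass either. Shared control of these members was not tested.

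**Figure D2:**
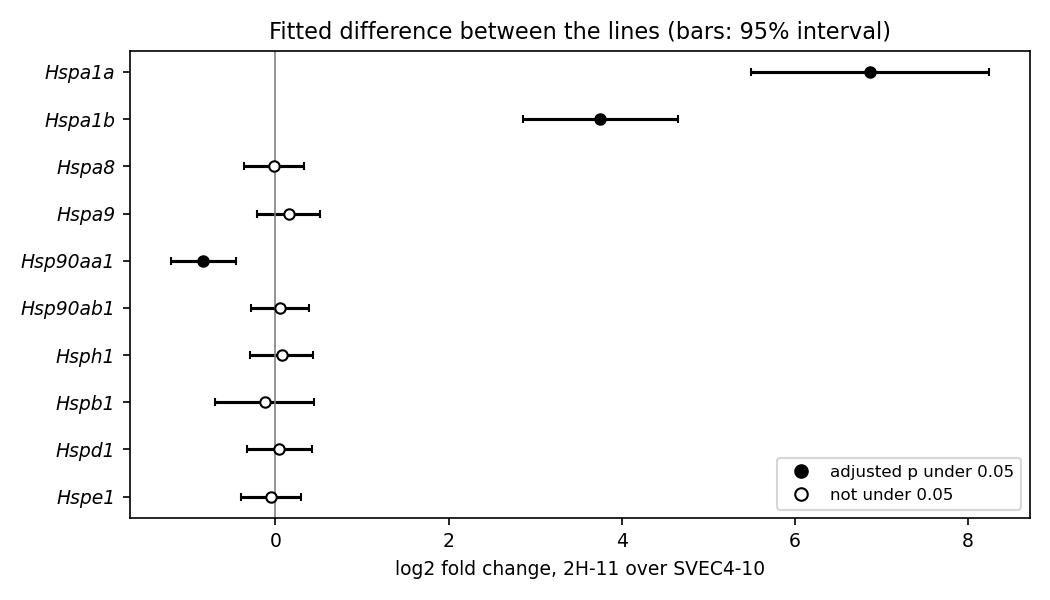
Log2 fold change of each heat-shock member, 2H-11 over SVEC4-10, with its 95% interval from the fit over all genes. Hspa1a at 6.87 and Hspa1b at 3.75 lie to the right, Hsp90aa1 at -0.83 to the left, and the intervals of the other 7 members hold 0.

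Hspd1, the mitochondrial Hsp60 that forms the folding chamber, had 1221, 1188 and 877 CPM in 2H-11, against 787, 1012 and 1156 in SVEC4-10. The libraries overlapped widely. Its fitted log2 difference was 0.05 (-0.33 to 0.42, adjusted p = 0.868). Hspe1, the Hsp10 lid of that chamber, had 705, 766 and 830 CPM in 2H-11, against 639, 760 and 823 in SVEC4-10, with a log2 fold change of -0.05 (-0.39 to 0.30, adjusted p = 0.855). Neither member of the mitochondrial pair passed the test. Per 100 Hspe1 reads there were 173, 155 and 106 Hspd1 reads in 2H-11, against 123, 133 and 140 in SVEC4-10. The lowest and the highest of these ratios were both in 2H-11. The log2 difference of the ratio was 0.10 (exact two-sided permutation p = 0.8). Hspd1 (ENSMUSG00000025980) lies at chr1:55077835-55088243 and Hspe1 (ENSMUSG00000073676) at chr1:55088132-55091307. GENCODE names 5 processed copies after Hspd1, 6 after Hspe1 and 1 after Hspa9, and reads of such copies could not be separated.

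**Figure D3:**
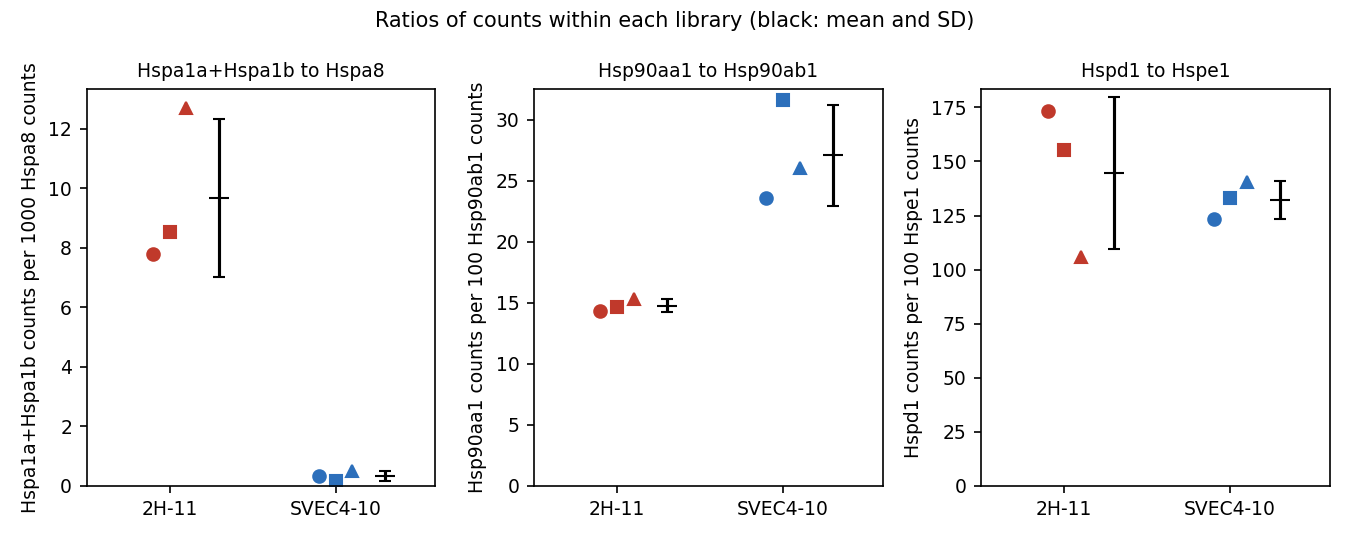
Ratios of reads within each library, with 1 point per library and the mean ± SD in black: Hspa1a and Hspa1b per 1000 Hspa8 reads, Hsp90aa1 per 100 Hsp90ab1 reads, and Hspd1 per 100 Hspe1 reads. The lines are apart in the first and second ratio and overlap in the ratio of Hspd1 to Hspe1.

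Hspb1, the small heat-shock protein Hsp25 that holds unfolded proteins without ATP, had 18.05, 26.1 and 35.0 CPM in 2H-11, against 27.3, 17.6 and 34.9 in SVEC4-10. Its libraries covered nearly the same range in both lines. The log2 fold change was -0.12 (-0.69 to 0.45, adjusted p = 0.77), the widest interval among the members that did not pass the test. Hspb1 (ENSMUSG00000004951) has 3 exons at chr5:135887919-135889563.

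In 2H-11 replicates 1 and 3 most members varied with transcript length, and within SVEC4-10 this was not clear. In 2H-11 replicate 2 the short Hspb1 and Hspe1 lay near the line's mean, at 0.0176 and -0.0147. Deviations are taken from the line's own mean, so those of its libraries offset each other. Across 6725 genes of 10 CPM or more, the deviation of a library from its line's mean was related to transcript length, with a Spearman rho of 0.294, 0.206 and -0.349 in 2H-11 and 0.046, -0.232 and 0.227 in SVEC4-10, as a description across genes that share a library. In 2H-11 replicate 3, members with long transcripts were below the mean of the line, except Hspa1a, which was 0.402 above it from 53 reads. Hspa1b and Hspa9 were near it, at -0.02 and -0.06. There Hsp90ab1 was lower by 0.28, Hspd1 by 0.26, Hspa8 by 0.23 and Hsp90aa1 by 0.22 on the log2 scale than in the mean of the line. The short members Hspb1 and Hspe1 were higher there by 0.50 and 0.16. In SVEC4-10 replicate 2, where rho was also negative, Hspb1 was lower by 0.46 and Hspe1 higher by 0.12. Leaving aside Hspa1a and Hspa1b, the longer members were mixed there. Hsp90aa1, Hspa8, Hspd1 and Hsp90ab1 were higher by 0.30, 0.24, 0.13 and 0.06, and Hspa9 and Hsph1 lower by 0.16 and 0.06. In SVEC4-10 replicate 3, where rho was positive, Hspb1 was higher by 0.445, and of the longer members only Hspa8 was lower. With the length trend removed, Hsp90aa1 had a log2 fold change of -0.76 (edgeR adjusted p = 0.00163), against -0.74 (adjusted p = 0.00233) on the same genes, Ensembl genes with a length, before removal.

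**Figure D4:**
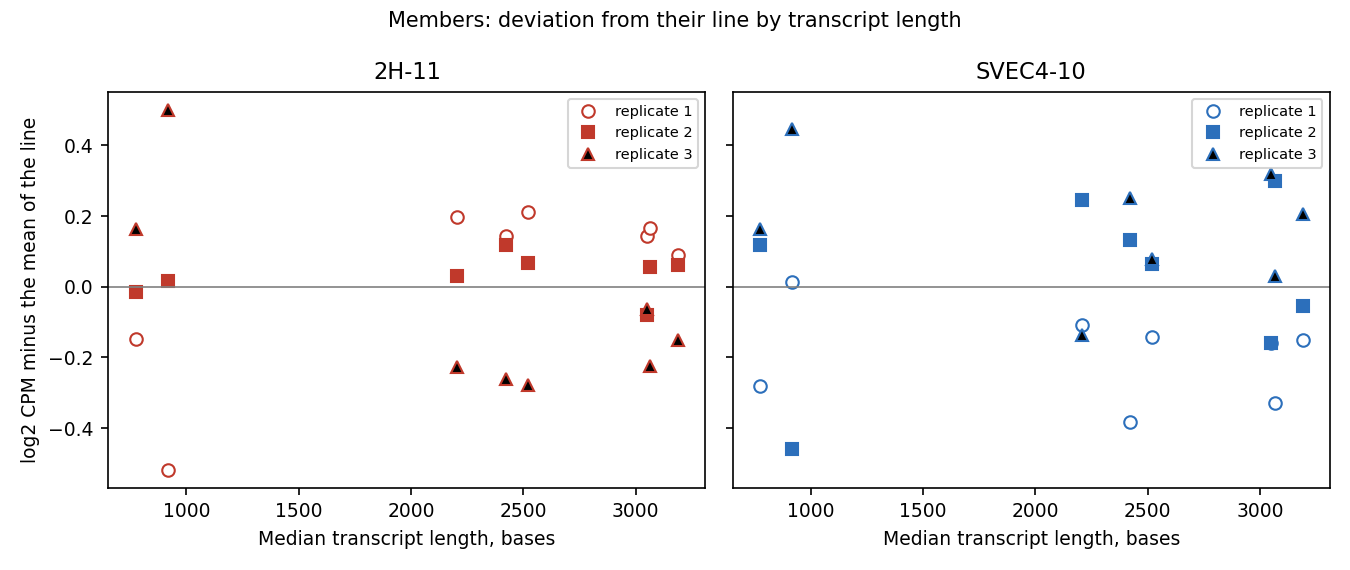
Deviation of 8 members from the mean of their line (log2 CPM, scaled with TMM) against median transcript length in bases, 2H-11 on the left and SVEC4-10 on the right, with a symbol per library. In 2H-11 replicate 3 the members under 1000 bases lie above 0 and the longer ones lie below it. Hspa1a and Hspa1b are left out because of their low counts in SVEC4-10. In 2H-11 replicate 3 their deviations were 0.402 and -0.02.

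The genes most like the sum of Hspa1a and Hspa1b, like Hsp90aa1 and like Hspd1 were found by the root mean square difference of log2(CPM + 1) over the 6 libraries, each gene centred on its own mean, among genes of at least 50 CPM. Nearest to the sum of Hspa1a and Hspa1b were Capg, which caps actin filaments (0.179), Cyba, a subunit of NADPH oxidase (0.18), and Tubb3, a beta tubulin (0.201). Capg had 261 ± 5.21 CPM in 2H-11 and 24.6 ± 5.57 in SVEC4-10. The pair itself had a mean of 14.7 CPM in 2H-11 and 0.466 in SVEC4-10. The added 1 thus narrowed its difference, and genes as low as the pair were not searched, so these genes need not share its fold. Nearest to Hsp90aa1 were Tma16 (0.0551), Fam136a (0.0759) and Ppat (0.0768), an enzyme of purine synthesis. Tma16 had 42.9 ± 5.65 CPM in 2H-11 and 72.1 ± 15.7 in SVEC4-10. Nearest to Hspd1 were Rtca (0.0783), Morf4l2 (0.086) and Wdr45b (0.0888).

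The partners of these chaperones were described by 9 lists of regulators, co-chaperones and relatives, with 97 genes in all. Of these 87 were tested, with 13 higher in 2H-11 and 11 lower. That is 27.6% called against 36.2% over all genes tested. The median log2 fold change was 0.02, against -0.10 over the tested genes with an Ensembl identifier. Without scaling beyond library size the split was 15 higher and 7 lower, and among Ensembl genes alone it was 17 higher and 6 lower. Without 2H-11 replicate 2 it was 9 higher and 6 lower. The median log2 fold change of shared genes moved by 0.0945 with library size alone and by 0.0988 among Ensembl genes. Without 2H-11 replicate 2 it moved by -0.00755. The cause of the changed splits was not tested.

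Of the regulators of the response, Hsf1, the heat-shock factor itself, had 42.2 ± 1.499 CPM in 2H-11 and 32.6 ± 8.40 in SVEC4-10 (log2 fold change 0.28, adjusted p = 0.324). Hsf2, a related factor, fell to 4.87 ± 0.777 CPM in 2H-11, against 8.85 ± 0.569 in SVEC4-10 (edgeR adjusted p = 0.0148). That call was lost without 2H-11 replicate 2 (adjusted p = 0.0723) and without SVEC4-10 replicate 3 (0.0503). Hsbp1, a binding partner of HSF1, had 363 CPM in 2H-11 and 408 in SVEC4-10 (adjusted p = 0.195). It and Hsf1 did not pass, so 1 of 3 tested regulators was called, or 33.3% against 36.2% over all genes tested.

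Of 11 tested J-domain partners of cytosolic Hsp70, 2 rose in 2H-11 and 2 fell. That is 36.4% called against 36.2% over all genes tested. Dnajb2 rose to 19.3 ± 4.28 CPM in 2H-11, against 8.54 ± 1.75 in SVEC4-10 (edgeR adjusted p = 0.00282). Dnaja4 rose to 4.70 ± 1.95 CPM in 2H-11, against 1.33 ± 0.768 in SVEC4-10 (adjusted p = 0.0101), a call lost without 2H-11 replicate 2 (0.078) and without SVEC4-10 replicate 1 (0.0508). Dnajb4 and Dnajb6, named after their values were seen, fell by 0.63 and 0.54 on the log2 scale. The most abundant partner, Dnaja1, had 717 ± 78.1 CPM in 2H-11 and 832 ± 173 in SVEC4-10 (adjusted p = 0.177). St13, a cofactor of Hsp70 kept in the same list, had 399 CPM in 2H-11 and 323 in SVEC4-10 (adjusted p = 0.327).

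Among 8 nucleotide exchange factors of cytosolic Hsp70, Bag2 and Bag3 rose and Bag5 fell, or 37.5% called against 36.2% over all genes tested. Bag2 had 42.5 ± 11.1 CPM in 2H-11 and 12.4 ± 2.24 in SVEC4-10 (log2 fold change 1.70, edgeR adjusted p = 1.44e-05). Bag3, which links Hsp70 to the small heat-shock proteins and to autophagy, had 32.0 ± 4.03 CPM in 2H-11 and 19.1 ± 3.34 in SVEC4-10 (0.67, adjusted p = 0.0201). Bag5 had 23.4 ± 3.96 CPM in 2H-11 and 33.1 ± 4.08 in SVEC4-10 (-0.59, adjusted p = 0.0408). The Bag3 call was lost without 2H-11 replicate 1 and without SVEC4-10 replicate 2 or 3, with adjusted p of 0.0787, 0.0688 and 0.117, and the Bag5 call without 2H-11 replicate 2 or 3 and without SVEC4-10 replicate 2, with 0.174, 0.0795 and 0.108. Bag3 also missed the threshold without a filter (0.0555), and Bag5 with library size alone (0.0938), among Ensembl genes only (0.0726) and with the length trend removed (0.0631). Hspa4, an Hsp110 relative, had 91.6 CPM in 2H-11 and 84.6 in SVEC4-10 (adjusted p = 0.957).

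Of 15 Hsp90 co-chaperones, 1 rose and 1 fell, and neither call held in every alternative fit. The share called was 13.3%, against 36.2% over all genes tested. Fkbp5, an immunophilin that binds steroid receptor complexes, had 26.5 ± 4.54 CPM in 2H-11 and 12.8 ± 6.41 in SVEC4-10 (edgeR adjusted p = 0.0222). Ppp5c, a phosphatase that binds Hsp90, had 41.4 ± 1.26 CPM in 2H-11 and 55.4 ± 6.18 in SVEC4-10 (adjusted p = 0.0403). The Fkbp5 call was lost without 2H-11 replicate 1 (0.0645) and without SVEC4-10 replicate 2 (0.096), and the Ppp5c call without 2H-11 replicate 1 (0.0929) or 2 (0.124) and without SVEC4-10 replicate 1 (0.08). Ppp5c also missed the threshold with library size alone (0.0996), among Ensembl genes only (0.0894) and with the length trend removed (0.0735). Stip1, the bridge between Hsp70 and Hsp90, had 351 ± 57.9 CPM in 2H-11 and 407 ± 41.3 in SVEC4-10 (adjusted p = 0.149). Cacybp had 316 CPM in 2H-11 and 299.6 in SVEC4-10 (adjusted p = 0.923). The median log2 fold change over the 15 co-chaperones was -0.20, and 13 of them did not pass the test.

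Among these 9 lists the other Hsp70 relatives held the largest differences. Hspa12a, a distant relative, had 13.5 ± 2.34 CPM in 2H-11 and 0.520 ± 0.271 in SVEC4-10, 19.8-fold higher (edgeR adjusted p = 1.12e-07). Hspa12b had 3.57 ± 0.617 CPM in 2H-11 and 0.209 ± 0.0810 in SVEC4-10, 18.3-fold higher (adjusted p = 7.06e-06). Hspa2, known from spermatogenic cells and named after its values were seen, fell to 7.41 CPM in 2H-11, against 16.2 in SVEC4-10. These 3 were the called ones among 5 tested, or 60.0% against 36.2% over all genes tested. Hspa14 had 263 CPM in 2H-11 and 295 in SVEC4-10 (adjusted p = 0.215), and Hspa13 had 41.0 CPM in 2H-11 and 26.6 in SVEC4-10 (0.0931). Hspa13 passed the test as higher without 2H-11 replicate 3 (edgeR adjusted p = 0.00804), among Ensembl genes only (0.0376) and with the length trend removed (0.0438).

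Of the small heat-shock proteins other than Hspb1, 3 of 4 tested rose in 2H-11, against 20.1% higher over all genes tested. The list has 8 genes, and the others were too low to test. Hspb6 had 43.6 ± 8.05 CPM in 2H-11 and 11.98 ± 1.62 in SVEC4-10 (edgeR adjusted p = 6.47e-06). Hspb2 had 44.9 ± 4.47 CPM in 2H-11 and 17.5 ± 1.54 in SVEC4-10 (adjusted p = 8.37e-05). Hspb8, the partner of Bag3, had 192 ± 23.8 CPM in 2H-11 and 96.3 ± 12.8 in SVEC4-10 (adjusted p = 0.000457). Cryab, the most abundant of them, had 294 ± 12.4 CPM in 2H-11 and 348 ± 72.0 in SVEC4-10 (adjusted p = 0.154). Without SVEC4-10 replicate 1 Cryab passed the test as lower (edgeR adjusted p = 0.011). Hspb2, at chr9:50751078-50752354, overlaps the annotated span of Cryab at chr9:50751325-50756636 on the other strand. How reads in the overlap were assigned is not given in the sources used here.

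In mitochondria, 2 of 15 chaperones and proteases were called, or 13.3% against 36.2% over all genes tested. Dnajc19, a J protein of the import motor, had 257 ± 27.2 CPM in 2H-11 and 174 ± 7.61 in SVEC4-10 (edgeR adjusted p = 0.0388), and the protease Htra2 had 85.5 ± 8.51 CPM in 2H-11 and 119 ± 18.9 in SVEC4-10 (0.0239). The Dnajc19 call was lost without any 1 of 5 libraries, all but 2H-11 replicate 1, with adjusted p of 0.0597 to 0.167, in DESeq2 (0.0927) and without a filter (0.121). The Htra2 call was lost without 2H-11 replicate 1 (0.051) or 2 (0.122) and without SVEC4-10 replicate 2 (0.0622), with library size alone (0.0515) and among Ensembl genes only (0.0577). Grpel1, the exchange factor of Hspa9, had 242 CPM in 2H-11 and 233 in SVEC4-10 (adjusted p = 0.871), so neither Hspa9 nor its exchange factor passed.

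Of 13 tested subunits of the cytosolic chaperonin TRiC and of prefoldin, 2 rose and 2 fell. The share called was 30.8%, against 36.2% over all genes tested. Cct2 fell to 457 ± 70.1 CPM in 2H-11, against 697 ± 74.4 in SVEC4-10 (edgeR adjusted p = 0.00247), while Cct5 rose to 891 ± 125 CPM in 2H-11, against 566 ± 89.8 in SVEC4-10 (0.018). Subunits of the same chaperonin thus differed in opposite directions, and Cct4 had 908 CPM in 2H-11 and 944 in SVEC4-10 (0.502). Of the prefoldin subunits, Pfdn1 rose to 282 ± 34.6 CPM in 2H-11, against 173 ± 5.26 in SVEC4-10 (0.00856), and Vbp1, named after its values were seen, fell by 0.70 on the log2 scale. The Cct5 call was lost without 2H-11 replicate 1 (0.0748) or 2 (0.0588), without SVEC4-10 replicate 1 (0.0999) or 3 (0.106), and in DESeq2 (0.0684), and Pfdn1 had an adjusted p of 0.0501 without 2H-11 replicate 2.

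Of 13 chaperones of the endoplasmic reticulum, 2 passed the test and both were lower in 2H-11. That is 15.4% called, against 36.2% called and 16.2% lower over all genes tested. Dnajb9, a target of the unfolded protein response, had 4.65 ± 1.23 CPM in 2H-11 and 14.2 ± 1.69 in SVEC4-10 (adjusted p = 0.000121). Hsp90b1, the Hsp90 of the endoplasmic reticulum, had 795 ± 128 CPM in 2H-11 and 1041 ± 67.4 in SVEC4-10 (adjusted p = 0.0209), a call lost without 2H-11 replicate 3 (0.0755) and among Ensembl genes only (0.0594). Calr had 799.6 CPM in 2H-11 and 699 in SVEC4-10 (adjusted p = 0.653).

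**Figure D5:**
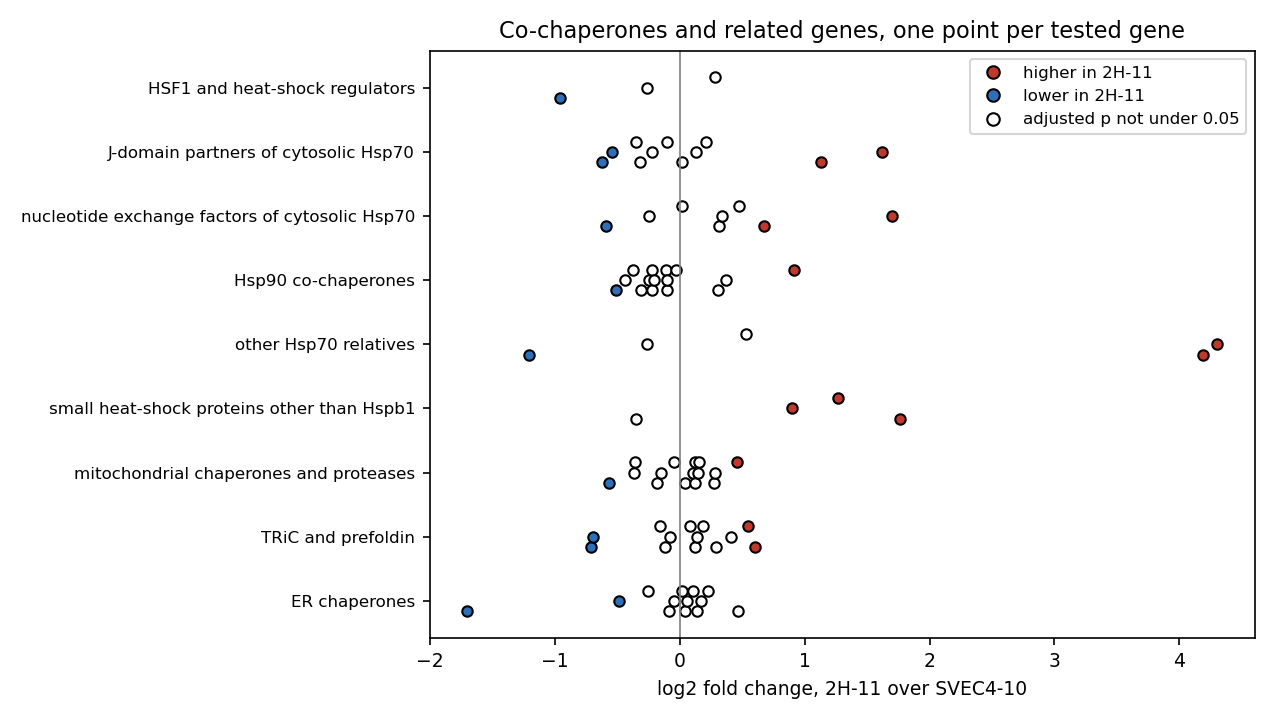
Log2 fold change, 2H-11 over SVEC4-10, of each tested gene in 9 chaperone lists, with 1 point per gene and called genes filled. Higher and lower calls stand in most lists. The largest increases are those of Hspa12a at 4.30 and Hspa12b at 4.19, followed by Hspb6 at 1.77, Bag2 at 1.70 and Dnaja4 at 1.62.

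Immediate-early genes, which respond to handling as well as to growth factors, summed to 242 to 284 CPM in 2H-11 and 208 to 276 CPM in SVEC4-10. Of 9 tested, 1 was higher and 2 lower, or 33.3% called against 36.2% over all genes tested. The most abundant, Ier3, had 121 CPM in 2H-11 and 100.3 in SVEC4-10 (edgeR adjusted p = 0.455). Junb and Ier2, named after their values were seen, varied widely within each line, which the sum does not show. Junb had 10.4, 12.2 and 41.5 CPM in 2H-11, against 34.4, 6.61 and 7.32 in SVEC4-10. Ier2 had 19.9, 15.8 and 38.4 CPM in 2H-11, against 38.6, 10.7 and 8.87 in SVEC4-10. The part of handling in the levels of Hspa1a and Hspa1b was not tested. In RNA of whole cultures, fewer cells with a transcript and less of it in each cell cannot be told apart, so the levels do not show whether the inducible pair was spread over all 2H-11 cells.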

How the data were processed

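The data were 6 direct RNA libraries of total RNA, 3 of each cell line. Per the labels' protocols, RNA was taken with Trizol and made into libraries with kit SQK-RNA002 of Oxford Nanopore, which reads RNA directly. The submitters' processing notes name the builds mm10 and GRCm38. Not given in the sources used here are the aligner, the counting tool, and how strand and reads matching several genes were treated. The authors deposited raw read counts per gene and the same values as CPM, each count per 1000000 counts of its library. After removal of 13 broken lines without a gene, 34724 genes remained.

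Counts were tested with edgeR 4.0.16 (R 4.3.3). Genes were kept by filterByExpr, with a minimum count of 10 and a minimum total of 15. Hspa1a, Hspa1b, Dnaja4, Hspa12a and Hspa12b passed this filter through their 2H-11 libraries alone. After TMM scaling the model had line as its single term and used the quasi-likelihood test. p-values were adjusted by Benjamini-Hochberg over 13187 genes, with a threshold of 0.05, and the common biological coefficient of variation was 20.2%. Ratios of 2 genes within a library were compared by exact permutation over libraries. Coordinates and transcript lengths (the median over a gene's transcripts) came from GENCODE M21 on GRCm38, and upstream sequences from RefSeq on GRCm38.p6. Ratios of summed counts carry exact 95% intervals. The steps were tested on simulated data. Python 3.11.15 with pandas 2.3.3, scipy 1.17.1 and matplotlib 3.10.9 was used for ratios, tables and figures.

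The members and the lists were chosen with earlier results of these data known, so no count over them is independent evidence. Of each chaperone list the text names the 2 genes with the smallest p and the 2 most abundant, and of each marker list the most abundant. Genes outside this rule are said to be named after their values were seen. Cct6a was not analysed here. The comparison was repeated with replicate number as a block, with DESeq2 1.42.0, with RLE size factors, with library size as the sole scaling, without a filter, on Ensembl genes only, on Hspa1a and Hspa1b summed, and without each library in turn. Further settings were chosen after seeing the data, a fit with the length trend removed and a fit on Ensembl genes that have a length. Upstream windows and neighbouring annotations describe the reference genome.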

Additional observations from a re-analysis of the deposited data

How the results depend on the processing

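Every member kept its side of the threshold in all alternative fits run for it, with Hspa1a and Hspa1b higher and Hsp90aa1 lower in each. Of the 7 members not called, 6 changed sign in at least 1 fit, all but Hspa9, with log2 fold changes between -0.42 and 0.29. Over the alternatives the log2 fold change of Hsp90aa1 ranged from -1.03 to -0.72 (edgeR or DESeq2 adjusted p up to 0.00535), that of Hspa1a from 6.63 to 8.03 and that of Hspa1b from 3.58 to 4.10. Leaving out each library, the log2 difference of the Hsp90aa1 to Hsp90ab1 ratio ranged from -0.96 to -0.75. Genes called higher numbered 2645, against 1657 among Ensembl genes alone, 1656 among those with a length and 1739 with the length trend removed, where fewer genes were tested. Against 11 chaperone list genes called lower, there were 7 with library size alone, 6 among Ensembl genes and 6 among those with a length, and between 6 and 13 leaving out each library, with 6 without 2H-11 replicate 2. The cause was not tested. Testing only Ensembl genes with a length shifted the median log2 fold change of shared genes by 0.0986, and removing the length trend as well made the shift 0.103.

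Replicate numbers did not pair the libraries, with correlations of -0.018, 0.05 and -0.0026 between same-numbered deviations. With a replicate block 2491 genes were higher and 1970 lower, and Hsp90aa1 was at -0.82 (edgeR adjusted p = 0.00266). The block ended the calls of Bag5 (adjusted p = 0.065), Ppp5c (0.0702), Dnajc19 (0.0509) and Htra2 (0.0524). Among the named list genes, 14 of 37 changed their call in some alternative. The 14 reads of Hspa1a and Hspa1b in SVEC4-10 limit the size of their difference more than its direction.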
